A study of Mus musculus with 18 samples.

Results

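The first hour after treatment of mouse immune cells with a cell wall extract was measured on 12 of the 18 Affymetrix 3′ expression arrays of the study. Its 2 groups are the 6 arrays labelled as taken 1 hr after treatment (1 h) and the 6 labelled as time zero controls (0 h), and the remaining 6 arrays were taken at 4 h. The members were chosen by these labels alone, with no measured value used. Mouse immune cells is all that the labels say of the material: no label gives a genotype, a strain, an age, a cell type, an animal, the source of the extract or a dose. Knockout mice are mentioned in the design text, with no allele named, so every fold change averages over samples whose genotypes could differ. The series title names TLR2 and the production of IL-10. Whether the 6 samples of each time are separate animals, separate cultures or repeats of one is not stated, so p-values reflect the spread between samples that could be technical.

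Cells of the innate immune system read microbial wall material through Toll-like receptors and related sensors, which switch on the transcription factor NF-kB and the MAP kinases. The first genes to answer are called primary response genes. They need no new protein, since the factors that drive them wait in the cell in an inactive form, and many of their mRNAs are short-lived. They encode messengers such as TNF and chemokines, transcription factors of the early growth response family, and the inhibitors that later shut the same pathways down. Secondary response genes, among them many antimicrobial and interferon-driven genes, follow after new protein has been made.

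Each title ends in an array code of unstated meaning. The codes form 3 ranges, from 12 to 22, from 32 to 37 and from 44 to 54. Every range holds 2 arrays per time and served as a block in the fit. The labelled material could be checked only against marker genes. All 17 measured macrophage markers passed a filter on dim probe sets, and their mean log2 value lay between 13.09 and 13.45 on the 12 arrays. Of the lymphocyte markers, 2 of 9 for T cells, 2 of 8 for B cells and 2 of 7 for NK cells passed. The stromal markers, which are collagens and other fibroblast genes, stood at 7.49 to 7.76 in the range 12 to 22, at 8.58 to 8.97 in the range 32 to 37 and at 9.92 to 10.38 in the range 44 to 54, with 0 h and 1 h arrays in each. The neutrophil markers ran from 7.47 to 7.70, from 6.72 to 7.27 and from 6.23 to 6.77 in the same order. Members of all 9 cell type lists were without a call at 1 h, and the part of the differing cell makeup in the results was not tested. In such bulk samples a smaller number of cells of a type and less RNA per cell cannot be told apart.

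A pair of the 1 h arrays stood apart. The array coded 14 responded weakly. The total counts of calls are given with and without it, as are the values of some genes and lists. On the array coded 36 the ratio of the 3′ to the 5′ control probe set, a measure of RNA quality that is higher where RNA is shorter, was 1.28 for Gapdh and 2.44 for beta-actin, against 0.681 to 0.832 and 1.2 to 1.56 on the other 11 arrays. Of the 4 h arrays, which enter the fit as well, that coded 37 had ratios of 1.51 for Gapdh and 1.98 for beta-actin. Median signals lay between 86.2 and 108 on the 12 arrays, and arrays of the same time correlated at 0.925 to 0.959 on the log2 scale.

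Signals are deposited on a linear scale, and changes were computed as differences of log2(signal + 16), which understates the change of dim genes. Of 45037 probe sets tested with limma, 190 rose and 40 fell at an adjusted p of 0.05 after Benjamini-Hochberg adjustment, and 3571 had an unadjusted p under 0.05. Of the 190 that rose, 172 rose at least 2-fold, and 26 of the 40 that fell did so at least 2-fold. Leaving out the array coded 14 moved the counts to 369 and 144, and leaving out any other single array of the 12 to between 106 and 160 rises and between 12 and 29 falls. Each gene was then represented by its brightest probe set over the 18 arrays. By that measure 85 of 18193 genes rose (0.467%) and 5 fell (0.0275%). Of the 85 genes, 82 passed the filter on dim probe sets, and so did 3 of the 5. The median log2 fold change over all genes was -0.01. Among the genes that rose, 44 did so at least 4-fold and 8 at least 16-fold, while 8 rose by less than 2-fold.

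**Figure D1:**
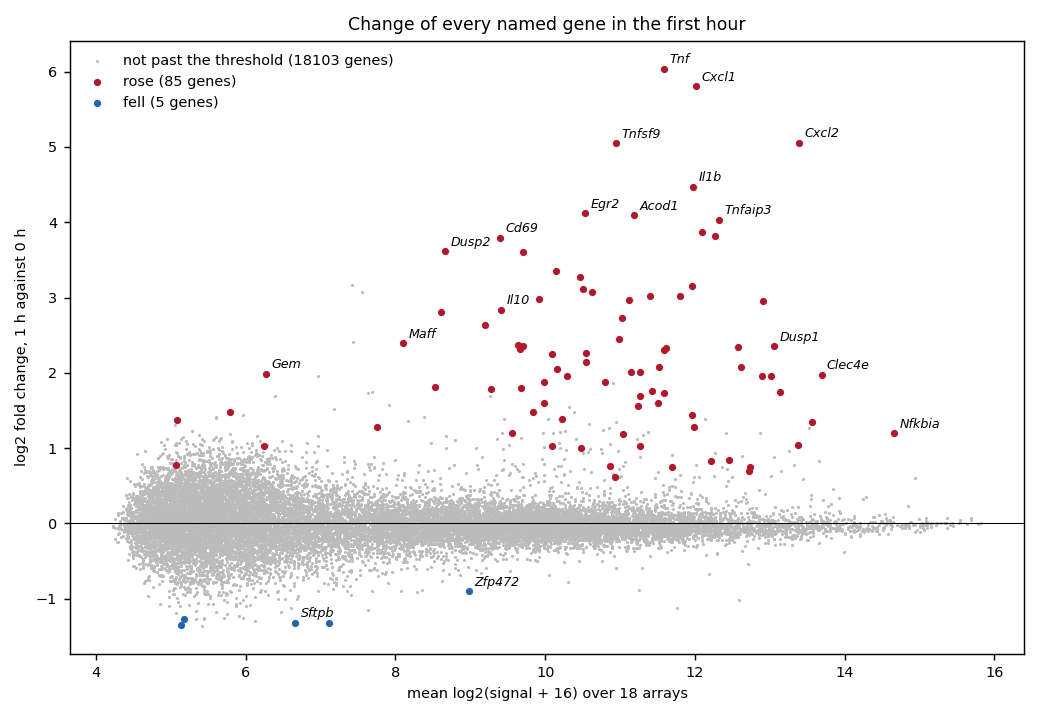
Change at 1 h against level for 18193 genes; the horizontal axis is the mean log2(signal + 16) over 18 arrays and the vertical axis the log2 fold change of 1 h against 0 h. The 85 genes that rose (red) spread over nearly the whole range of levels and reach 6.04 for Tnf, whereas the 5 that fell (blue) lie between -0.90 and -1.34.

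The cytokine gene Tnf made the largest rise. Tnf encodes tumour necrosis factor, a messenger that makes vessels and leukocytes inflammatory and that itself acts through NF-kB. Its signal had a lowest, a median and a highest value of 34.3, 173 and 263 on the 0 h arrays and of 1557, 13820 and 19650 on the 1 h arrays. The lowest 1 h value, that of the array coded 14, was still above every control. The log2 fold change was 6.04 ± 0.54 (SE, adjusted p = 1.56e-04), which is 65.8-fold, and it was 6.67 ± 0.30 (adjusted p = 2.14e-08) without the array coded 14. Within the ranges 12 to 22, 32 to 37 and 44 to 54 it was 5.01, 7.10 and 6.01.

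Il1b encodes IL-1 beta, a fever-inducing cytokine that is made as an inactive precursor. Its 0 h values were uneven, with 3538 and 1131 on both control arrays of the range 32 to 37 and 99.9 to 252 on the other 4. At 1 h the lowest, the median and the highest signal were 282, 17970 and 29770, so that the groups overlapped through the array coded 14. The log2 fold change was 4.47 ± 0.89 (adjusted p = 0.0318). It was 5.29 ± 0.71 (adjusted p = 7.59e-04) without the array coded 14 and 4.39 (adjusted p = 0.0836) without the array coded 36. Among the 21 measured members of a list of inflammatory cytokines and growth factors, Tnf and Il1b were the 2 that rose and none fell, against 0.467% of all genes that rose. The median log2 fold change of the list was 0.19, against -0.01 for all genes. Counts and medians of the lists that follow stand against the same background. All lists were chosen with earlier results of these data known, so their distance from the background is description and no test. An adjusted p given without the array coded 36 is the value without the 1 h array of the highest 3′ to 5′ ratio. The 4 h array coded 37 stayed in that fit. Leaving out other arrays also removed many calls. Between 46 and 66 of the 85 risen genes kept their call without any single array other than that coded 14.

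Il10 encodes the anti-inflammatory cytokine of the title. Its signal had a lowest, a median and a highest value of 36.3, 244 and 315 at 0 h and of 267, 1650 and 2127 at 1 h. The array coded 14, at 267, lay among the controls, and the other 5 treated arrays lay between 1063 and 2127, above all of them. The log2 fold change was 2.84 ± 0.54 (adjusted p = 0.0247), and 3.23 ± 0.50 (adjusted p = 0.00306) without the array coded 14. Il10 lost its call without each of 9 single arrays, of both times and all ranges, with 2.70 (adjusted p = 0.0752) without the array coded 36 and 2.62 (adjusted p = 0.0800) without that coded 33, and with the 4 h arrays left out of the fit (adjusted p = 0.0825). Within the ranges it was 0.91, 4.92 and 2.69, and the 2 controls of the range 32 to 37 held the lowest signals, 36.3 and 59.6. By limma's F test of the difference between ranges the adjusted p was 0.564.

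Socs3, an inhibitor of cytokine receptor signalling through STAT3, was the other riser among 19 measured members of a list on IL-10, SOCS proteins and STAT3, whose median was 0.05. Its signal went from 310, 688 and 1009 (lowest, median and highest at 0 h) to 1857, 12440 and 16510 at 1 h. The groups did not overlap. The log2 fold change was 3.82 ± 0.43 (adjusted p = 6.56e-04). Tnfsf9, which encodes the costimulatory ligand 4-1BBL, was the riser among 25 measured members of the TNF superfamily list (median 0.01). It stood at 164, 221 and 320 at 0 h and at 627, 12140 and 15830 at 1 h, a log2 fold change of 5.05 ± 0.65 (adjusted p = 0.00185). All treated arrays were above all controls for Tnfsf9, and those other than the array coded 14 lay between 10660 and 15830.

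**Figure D2:**
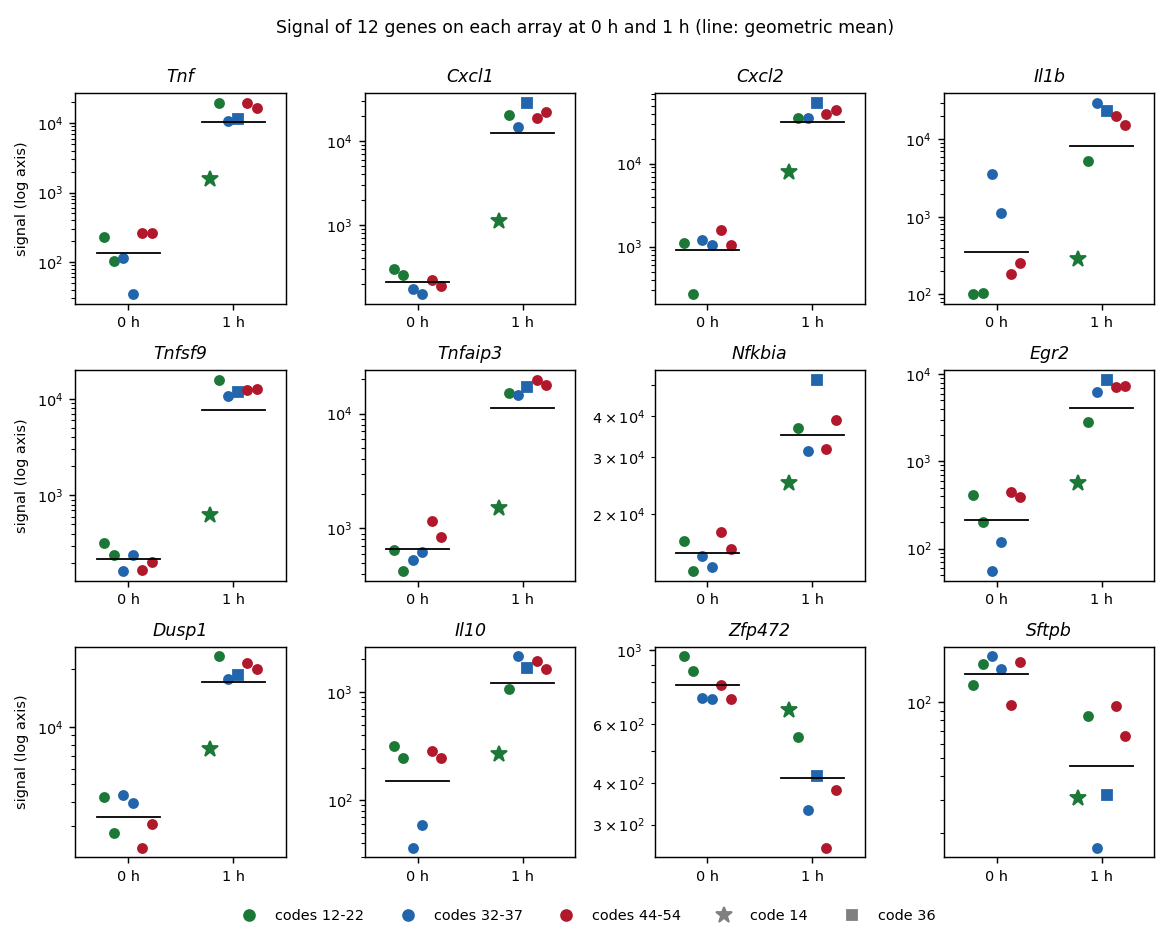
Signal of 12 genes on each of the 6 arrays at 0 h and the 6 at 1 h, on a log axis; colours mark the code ranges, the star is the array coded 14, the square the array coded 36, and the line is the geometric mean of a time. The star is the lowest 1 h array for the first 10 genes shown, all of which rose, and for Tnf, Cxcl1, Cxcl2, Tnfsf9, Tnfaip3, Nfkbia, Egr2 and Dusp1 it still lies above every 0 h array.

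The chemokines, secreted proteins that draw leukocytes out of the blood, gave 7 risers among 24 measured genes, and their median log2 fold change was 0.70. The neutrophil attractants Cxcl1, Cxcl2 and Cxcl3 are neighbours on chromosome 5. A stretch of each promoter from the RefSeq table (GRCm38.p6, plus strand) is shown because all 3 hold the same letters, here in capitals, of the NF-kB-like motif GGANNTTCC. The stretches lie at chr5:90891145-90891213, chr5:90903773-90903841 and chr5:90785999-90786067, and the motif starts at -70, -96 and -72 from the gene start.
Cxcl1: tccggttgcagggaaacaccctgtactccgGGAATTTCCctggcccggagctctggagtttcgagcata
Cxcl2: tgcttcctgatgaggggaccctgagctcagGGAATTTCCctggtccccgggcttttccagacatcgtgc
Cxcl3: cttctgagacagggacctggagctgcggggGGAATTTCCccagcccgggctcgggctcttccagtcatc

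Cxcl1 went from 150, 204 and 303 (lowest, median and highest at 0 h) to 1130, 19490 and 28560 at 1 h, without overlap. Its log2 fold change was 5.81 ± 0.62 (adjusted p = 4.43e-04). Cxcl2 was already at a median of 1073 at 0 h, with 1 control, the array coded 18, at 268, and it reached 7880, 37780 and 54110 at 1 h. Its log2 fold change of 5.06 ± 0.40 (adjusted p = 5.08e-05) had the smallest p of the 85 genes. Cxcl2 was also the gene for which the array coded 14 stood furthest above the mean of the controls of its range, by 3.81. Cxcl3 stood at 79.8, 103 and 146 at 0 h and at 106, 1603 and 2591 at 1 h, a log2 fold change of 3.11 ± 0.51 (adjusted p = 0.00951), and here the array coded 14 lay among the controls.

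The CC chemokines that rose were Ccl2 and Ccl7, which attract monocytes, and Ccl3 and Ccl4, which attract monocytes and lymphocytes. Ccl3 went from 132, 538 and 795 to 634, 8329 and 16070 (log2 fold change 3.87 ± 0.58, adjusted p = 0.00575). Ccl7 went from 15.9, 96.1 and 184 to 91.1, 2376 and 3929 (3.60 ± 0.56, adjusted p = 0.00621). In both, the array coded 14 overlapped the controls and the other 5 treated arrays did not. Ccl2 rose from a median of 410 to 4667 (3.02 ± 0.55, adjusted p = 0.0174; 0.0579 without the array coded 36), and Ccl4 from 321 to 2014 (2.44 ± 0.41, adjusted p = 0.0110). The log2 differences of Ccl2 and Ccl4 from the mean of the controls of the range were -0.41 and -0.21 on the array coded 14, and 2.75 and 1.90 on the array coded 20. With the array coded 14 left out, Ccl12 (log2 fold change 2.06, adjusted p = 0.0142) and Cxcl10 (2.38, adjusted p = 0.0398) were called as well, so that 9 of the 24 chemokines rose.

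Of 35 immediate early transcription factors, 10 rose, and 30 of the 35 had a log2 fold change above 0 (list median 0.78). Without single arrays other than that coded 14 the count lay between 6 and 8, with 6 without the array coded 36. The early growth response genes Egr1, Egr2 and Egr3 encode zinc finger factors that many stimuli induce within minutes. Egr2 went from 55.5, 297 and 447 at 0 h to 565, 6680 and 8666 at 1 h, without overlap (log2 fold change 4.12 ± 0.55, adjusted p = 0.00245). Egr1 went from 313, 666 and 1163 to 1242, 6666 and 10830, also without overlap (3.07 ± 0.35, adjusted p = 7.21e-04). Egr3 went from 129, 347 and 519 to 447, 4337 and 4534, with the array coded 14 among the controls (2.98 ± 0.45, adjusted p = 0.00575). In the range 12 to 22 both treated arrays were low for Egr3, at 447 and 1028, and the log2 fold changes within the ranges were 0.94, 4.84 and 3.15. Egr3 had the smallest p for a difference between ranges of the 18193 genes in limma's F test, and it failed the adjustment at an adjusted p of 0.101. All these Egr3 values are of its brightest probe set. A dimmer probe set of Egr3 was not called at 1 h (0.18 ± 0.38, adjusted p = 0.96).

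Nr4a1, an orphan nuclear receptor of activated lymphocytes and macrophages, rose from a median of 819 to 5198 (log2 fold change 2.26 ± 0.34, adjusted p = 0.00575). Its controls were close together, from 682 to 948, and all treated arrays lay above them. Junb, a partner in the AP-1 factor, rose from 842 to 3646 (2.01 ± 0.28, adjusted p = 0.00342) without overlap. The other risers of this list were Csrnp1 (2.81), the small Maf factor Maff (2.39), Ier3 (2.34), Ets2 (1.75) and Klf6 (0.82). Maff was the least secure of them, with an adjusted p of 0.0456, and 0.123 without the array coded 36. Csrnp1 lost its call there too, and without each of 7 other single arrays. For Klf6 only the brightest probe set was called, and the others gave 0.44 to 1.04. Fos was not called with all arrays, at 0.97 ± 0.22 (adjusted p = 0.0750), from an already bright median of 12220 to 22700. Without the array coded 14 it was called (1.05, adjusted p = 0.0417), as were Nr4a3, Ier2, Ier5, Myc and Cebpb, which makes 16 of 35.

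A list of NF-kB subunits, inhibitors and feedback genes made up another group. Of its 24 measured members 6 rose, the median was 0.88, and 22 of the 24 lay above 0. Tnfaip3 encodes A20, an enzyme that edits ubiquitin chains and so stops signalling to NF-kB. It went from 426, 632 and 1150 at 0 h to 1498, 15940 and 19750 at 1 h, without overlap (log2 fold change 4.03 ± 0.46, adjusted p = 7.21e-04). Nfkbia encodes IkB alpha, which holds NF-kB in the cytoplasm and is destroyed and then remade after each stimulus. It was among the brightest genes before treatment, from 13390 to 17610, and lay between 25010 and 51830 at 1 h, a rise of 2.30-fold (1.2 ± 0.17, adjusted p = 0.00383). This brightest probe set gave the smallest change of the 5 for Nfkbia: the other 4, all called, gave log2 fold changes of 1.81, 1.90, 2.35 and 2.68. No treated array overlapped a control for Nfkbia on the brightest, and the array coded 14, at 25010, was the lowest of them.

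Transcripts of 3 related IkB proteins rose, and that of Bcl3 did not pass the threshold with all arrays. Nfkbiz, a nuclear IkB protein needed for a set of secondary response genes, rose from a median of 1739 to 22350 (2.96 ± 0.45, adjusted p = 0.00575). Nfkbie, which encodes IkB epsilon, rose from 1065 to 7272 (2.31 ± 0.41, adjusted p = 0.0155). Nfkbid, another nuclear IkB protein, rose from 644 to 2810 (1.95 ± 0.28, adjusted p = 0.00429). Traf1, an adaptor of TNF receptors, rose from 229 to 3512 (3.36 ± 0.51, adjusted p = 0.00602). Its other probe set, nearly as bright at a mean log2 of 9.88 against 10.15, was not called (1.90 ± 0.58, adjusted p = 0.264). For Nfkbiz, Nfkbie and Traf1 the array coded 14 overlapped the controls. For Nfkbid it was 903 against a highest control of 906, and the other 5 treated arrays lay between 2621 and 3923. With the array coded 14 left out, Relb (1.38), Bcl3 (1.30), Tnip1 (1.13) and Birc3 (1.49) were called as well.

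The RefSeq promoter table gave 94 promoters for 70 of the 85 risen genes, each from 250 bases before to 50 bases after the gene start. Both strands were searched for GGANNTTCC (NF-kB-like), TGANTCA (AP-1), TGACGTCA (the cyclic AMP response element, CRE), TATAAA and the CArG box of serum response factor. GGANNTTCC was in 16 promoters (17.0%), against 4.26% of all 32851 promoters of the table and 4.51% of the 18109 promoters of genes named on the array. In the same order the shares were 7.45%, 7.81% and 6.38% for TGANTCA and 6.38%, 1.79% and 2.49% for TGACGTCA. They were 19.1%, 13.6% and 9.77% for TATAAA and 6.38%, 1.63% and 1.35% for the CArG box. Of the 5 promoters of the genes that fell, 1 held GGANNTTCC. These are matches of letters, with no test and no measurement of binding, and promoters of 1 gene can overlap: the 6 with a CArG box belong to 3 genes. The genes with GGANNTTCC were Tnf, Cxcl1, Cxcl2, Cxcl3, Acod1, Ccrl2, Tnfaip3, Nfkbia, Nfkbie, Icam1, Ier3, Maff, Rcan1, Flrt3, Tnfaip2 and Ccnl1, and their log2 fold changes ran from 0.74 for Ccnl1 to 6.04 for Tnf.

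Stretches of 4 of these promoters are shown because they belong to a messenger, a metabolic enzyme and both leading inhibitors of NF-kB; the capitals mark GGANNTTCC. Tnf lies on the minus strand (chr17:35202181-35202249), Acod1 on the plus strand (chr14:103046897-103046965), and Tnfaip3 (chr10:19015396-19015464) and Nfkbia (chr12:55492638-55492855) on the minus strand of GRCm38.p6. The match starts at -212 in Tnf, at -85 in Acod1 and at -24 in Tnfaip3, and Nfkbia holds 2 matches, at -178 and -29.
Tnf: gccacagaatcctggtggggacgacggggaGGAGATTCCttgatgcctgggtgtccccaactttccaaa
Acod1: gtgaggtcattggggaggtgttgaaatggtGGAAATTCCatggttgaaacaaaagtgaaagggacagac
Tnfaip3: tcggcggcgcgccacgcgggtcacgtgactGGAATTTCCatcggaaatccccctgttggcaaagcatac
Nfkbia: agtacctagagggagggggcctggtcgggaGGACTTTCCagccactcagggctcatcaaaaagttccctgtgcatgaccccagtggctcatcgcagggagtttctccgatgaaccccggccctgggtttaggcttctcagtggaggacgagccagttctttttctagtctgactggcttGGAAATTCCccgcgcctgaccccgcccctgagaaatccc

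Of 22 measured phosphatases and feedback genes of the MAP kinases 6 rose, with a list median of 0.50, and 4 or 5 did without any single array other than that coded 14. Dusp1 and Dusp2 encode phosphatases that switch MAP kinases off in the nucleus. Dusp1 was well expressed in the controls, from 2308 to 4389, and stood at 7678, 19450 and 23420 at 1 h, without overlap (2.35 ± 0.29, adjusted p = 0.00117). Dusp2 was dim in the controls, with a median of 59.5 and a highest value of 120, and it reached 92.0, 1282 and 1896 (3.61 ± 0.63, adjusted p = 0.0138). The array coded 14 overlapped the Dusp2 controls as a whole, although its value of 92.0 was above both controls of its own range, at 17.2 and 43.3.

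Dusp4 rose by 2.05 ± 0.29 (adjusted p = 0.00383) and Dusp5 by 1.78 ± 0.34 (adjusted p = 0.0249). The stress sensors Gadd45a and Gadd45b, which bind MAP kinase kinases and regulators of the cell cycle, rose by 2.36 ± 0.41 (adjusted p = 0.0133) and 1.56 ± 0.30 (adjusted p = 0.0275). For Dusp5 the adjusted p was 0.0514 and for Gadd45b 0.0530 without the array coded 36. A CArG box was found in promoters of Dusp5, Egr2 and Zfp36. The 8 letters of the CRE were found in 1 promoter each of Dusp1, Maff, Nfkbid, Ppp1r15a, Rcan1 and Ccnl1. The CArG boxes and the CRE of Dusp1 are printed in capitals to set these phosphatase and early genes side by side. For Egr2 the box of 1 promoter is printed, and other promoters of that gene hold a different CArG box. The stretches are chr19:53529033-53529112 (plus strand, matches at -82 and -72), chr10:67537464-67537533 (plus, -72), chr7:28379247-28379316 (minus, -58) and chr17:26508578-26508645 (minus, -143).
Dusp5: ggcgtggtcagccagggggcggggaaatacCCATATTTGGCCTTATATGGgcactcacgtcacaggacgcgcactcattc
Egr2: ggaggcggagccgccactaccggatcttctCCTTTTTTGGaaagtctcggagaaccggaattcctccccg
Zfp36: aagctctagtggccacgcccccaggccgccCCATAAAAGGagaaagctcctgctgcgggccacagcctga
Dusp1: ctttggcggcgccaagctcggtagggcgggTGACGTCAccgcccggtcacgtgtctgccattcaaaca

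Some genes whose products destroy inflammatory mRNAs rose as well. Zfp36 encodes tristetraprolin, which binds AU-rich elements of Tnf and other cytokine mRNAs. It went from 2884, 3211 and 4404 to 4990, 14860 and 20690, without overlap (1.95 ± 0.23, adjusted p = 0.00105). Zc3h12a, which encodes the endonuclease Regnase-1, rose from a median of 319 to 1286 (1.88 ± 0.34, adjusted p = 0.0168), and its relative Zc3h12c from 178 to 1359 (2.25 ± 0.45, adjusted p = 0.0321). These 3 were the risers among 17 measured decay factors, whose median was 0.11, and 1 or 2 rose without any single array other than that coded 14. In the fit without the array coded 36 the adjusted p was 0.0502 for Zc3h12a and 0.0941 for Zc3h12c.

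Among 30 measured enzymes and effectors of inflammation 4 rose (list median 0.19), and without any single array other than that coded 14 the count was 1 or 2. Acod1 was the 1 still called without the array coded 36. Acod1 makes the antimicrobial metabolite itaconate in mitochondria. Its signal went from 71.3, 128 and 411 to 220, 5123 and 7137 (4.09 ± 0.57, adjusted p = 0.00344), with the array coded 14 among the controls. Ptgs2 encodes cyclooxygenase-2, which makes prostaglandins, and went from 164, 461 and 1549 to 270, 7984 and 9735 (3.02 ± 0.58, adjusted p = 0.0245; 0.0747 without the array coded 36). The dimmer probe set of Ptgs2 was not called (2.29 ± 0.68, adjusted p = 0.236). Sod2, the mitochondrial superoxide dismutase, rose 2.06-fold (1.04 ± 0.21, adjusted p = 0.0320). Mmp13, a collagenase, rose 2.01-fold (1.01 ± 0.20, adjusted p = 0.0295). Sod2 and Mmp13 each lost their call in 17 of the 29 alternative settings, the fit without the array coded 36 among them (adjusted p = 0.0902 and 0.0777). Mmp13 was unlike the leading genes in that its treated arrays were close together, from 780 to 1088, with the array coded 14 at 945.

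In a list on adhesion and costimulation 3 of 22 genes rose (median 0.38), and 2 did without any single array other than that coded 14. Cd69, an early activation marker that holds leukocytes in tissue, went from 38, 82.9 and 99.0 to 206, 1683 and 1934, without overlap (3.80 ± 0.64, adjusted p = 0.0121). Cd83, a marker of maturing antigen presenting cells, went from 449, 977 and 1370 to 856, 10680 and 20010 (3.16 ± 0.49, adjusted p = 0.00621). Icam1, the ligand of leukocyte integrins, rose from a median of 1644 to 9225 (2.07 ± 0.41, adjusted p = 0.0317; 0.0937 without the array coded 36). For Cd83 and Icam1 the array coded 14 lay within the controls.

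Of 38 G protein-coupled receptors and RGS proteins 4 rose, with a list median of -0.05, and 2 or 3 did without any single array other than that coded 14. Ccrl2, an atypical receptor that presents the attractant chemerin, went from 86.3, 226 and 320 to 360, 2497 and 5168 without overlap (3.27 ± 0.49, adjusted p = 0.00575). Gpr84, a receptor for medium-chain fatty acids, rose from a median of 523 to 3487 (2.33 ± 0.44, adjusted p = 0.0231; 0.0683 without the array coded 36). Rgs1, which damps chemokine receptor signalling, rose from 1670 to 5659 without overlap (1.73 ± 0.26, adjusted p = 0.00575). The prostaglandin E2 receptor gene Ptger4 rose from 2707 to 6499 (1.44 ± 0.26, adjusted p = 0.0181; 0.0565 without the array coded 36).

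Receptors of microbial products gave a single rise. Of 25 measured Toll-like receptors, C-type lectins and adaptors 1 rose, Clec4e, which encodes the glycolipid receptor Mincle. Its controls were uneven, with 12420 and 10880 in the range 32 to 37 and 1275 to 2833 on the other 4, and its log2 fold change of 1.97 ± 0.42 had an adjusted p of 0.0480 (0.124 without the array coded 36). Tlr2, the receptor of the title, stood at 2824, 5820 and 9878 at 0 h and at 5053, 15940 and 21460 at 1 h, a log2 fold change of 1.27 ± 0.28 that missed the threshold (adjusted p = 0.0654). When the array coded 14 was left out the Tlr2 difference was 1.49 ± 0.25 (adjusted p = 0.00570), and within the ranges it was 1.07, 1.45 and 1.28. Tlr2 passed in 8 of 29 alternative settings, among them the fit with only 0 h and 1 h arrays (adjusted p = 0.0338), array weights (0.0313), the filter on dim probe sets (0.0324), a pseudocount of 64 (0.0277) and the fit without the range 12 to 22 (0.00287). The median of this list was 0.01.

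Irf1, a transcription factor of both interferon and NF-kB responses, was the riser among 27 measured genes of the interferon response, whose median was -0.03. It rose from a tight set of controls, 834 to 1208, to a median of 5322 (2.08 ± 0.34, adjusted p = 0.00997), while the array coded 14 stayed at 906. Mmp13 was the 1 riser among 19 genes listed as late inflammatory genes. Il6, named here after its values were seen, stood at 2.40, 19.5 and 48.3 at 0 h and at 21.3, 63.3 and 471 at 1 h, and was not called (1.75 ± 0.89, adjusted p = 0.677; 0.433 without the array coded 14).

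Survival genes gave 3 risers of 30 (median 0.37), and 1 without the arrays coded 47 or 51. Cflar encodes c-FLIP, which blocks caspase-8, and rose 3.24-fold (1.70 ± 0.32, adjusted p = 0.0214; 0.0655 without the array coded 36). The kinase gene Pim1 rose 3.04-fold (1.60 ± 0.25, adjusted p = 0.00608), and Mdm2, which encodes the ubiquitin ligase of p53, rose 1.68-fold (0.74 ± 0.13, adjusted p = 0.0155). Dimmer probe sets were not called, at 1.30 (adjusted p = 0.134) for Pim1 and at 0.47 (adjusted p = 0.642) and 0.15 for Mdm2. Kdm6b encodes a demethylase of histone H3 and was the riser of 25 chromatin and transcription regulators (list median 0.07), from a median of 198 to 1539 (2.32 ± 0.42, adjusted p = 0.0164; 0.0530 without the array coded 36).

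No member was called in lists of inflammasome genes and IL-1 receptors (0 of 14), glycolysis and HIF-1 targets (0 of 21), cholesterol synthesis and efflux (0 of 18), the cell cycle (0 of 27) and cytosolic ribosomal proteins (0 of 20), in either direction. The medians of these lists lay between -0.05 and 0.05. Their brightest members had differences near 0: Pkm, a glycolytic enzyme, 0.01 ± 0.11, Pgk1, another, -0.05 ± 0.11, the DNA clamp Pcna -0.15 ± 0.13, the helicase subunit Mcm6 -0.04 ± 0.19, the cholesterol exporter Abca1 0.06 ± 0.11 and the sterol enzyme Hmgcs1 0.14 ± 0.19. The ribosomal protein genes Rps14 and Rps4x gave -0.03 ± 0.13 and 0.00 ± 0.13. Casp1 gave -0.01 ± 0.15 and the inflammasome adaptor Pycard -0.24 ± 0.12.

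**Figure D3:**
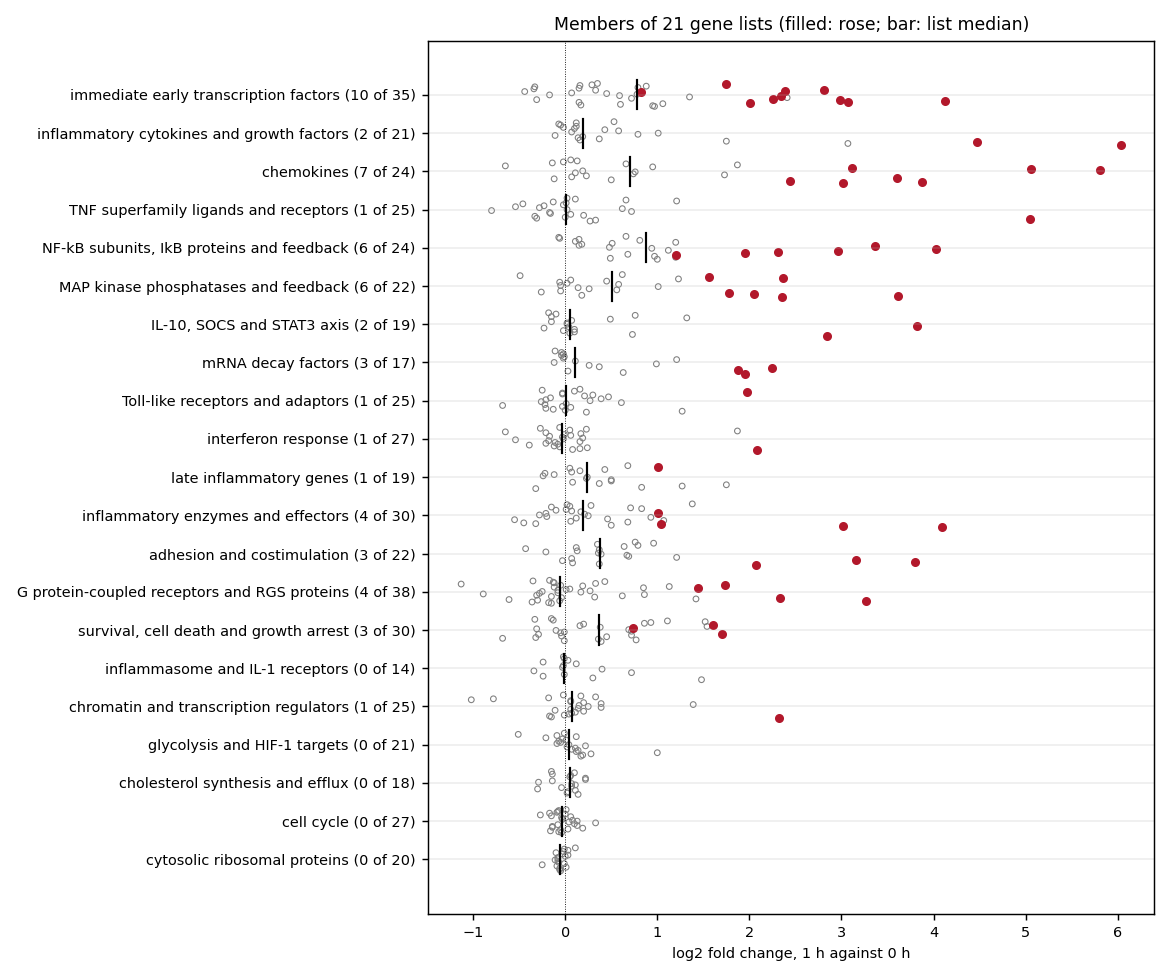
Log2 fold change at 1 h against 0 h of each measured member of 21 gene lists; filled points rose, open points did not pass the threshold, the bar is the median of the list and the numbers give risers of measured members. Immediate early factors (10 of 35), chemokines (7 of 24), NF-kB genes (6 of 24) and MAP kinase feedback (6 of 22) hold most of the filled points, and the last 4 lists hold none.

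In all, 54 of the 85 risen genes stood in at least 1 of the 21 lists and 31 in none. The largest of the 31 was Gm6377, a predicted gene, at 242, 334 and 567 at 0 h and 653, 3896 and 6194 at 1 h (2.97 ± 0.40, adjusted p = 0.00246). Pde4b, a phosphodiesterase that degrades cyclic AMP, rose by 2.72 ± 0.52 (adjusted p = 0.0245). Cdc42ep2 and Cdc42ep4, effectors of the cytoskeletal GTPase Cdc42, rose by 2.63 and 1.2. Further risers outside the lists included Flrt3 (2.35), Prdm1, which encodes the repressor Blimp-1 (2.14), Rasgef1b (2.01), Gem (1.99), Marcksl1 (1.95), Rcan1, an inhibitor of calcineurin (1.88), the oxidized LDL receptor gene Olr1 (1.81), Rab20 (1.80), Tnfaip2 (1.75), Ppp1r15a, which restarts translation after stress (1.59), and Plek (1.34). Gm10791, Cyp1a2 and Fcamr were the 3 risers that did not pass the filter on dim probe sets, with 1 h medians of 76.5, 38.9 and 32.9.

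The 5 genes that fell had log2 fold changes between -0.90 and -1.34, and 2 of them were too dim for the filter. Zfp472, a zinc finger gene, was the brightest, at 711, 752 and 957 at 0 h and at 256, 401 and 659 at 1 h (log2 fold change -0.90 ± 0.16, adjusted p = 0.0133). Sftpb, a gene best known for surfactant protein B of the lung, went from 96.9, 155 and 176 to 16.6, 49 and 95.4 (-1.32 ± 0.26, adjusted p = 0.0292). E330020D12Rik went from a median of 283 to 140 (-1.32 ± 0.27, adjusted p = 0.0370). All 5 had every treated array, that coded 14 included, below every control. Nepn (-1.27 ± 0.26, adjusted p = 0.0359) and 2900076A07Rik (-1.34 ± 0.25, adjusted p = 0.0231) were those 2, with 0 h medians of 39.7 and 41.7. Zfp472 was the 1 of the 5 still called without the array coded 36 (adjusted p = 0.0257). For the other 4 that p lay between 0.0530 and 0.0804.

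For 25 of the 85 risen genes the lowest 1 h array lay above the highest 0 h array, a pattern found in 50 of all 18193 genes (0.275%). The reverse pattern held for 5 of the 5 fallen genes and for 38 of all genes (0.209%). Since the 85 and the 5 were called on these same arrays, such counts describe the arrays and test nothing. The 25 were Tnf, Cxcl1, Cxcl2, Tnfsf9, Egr2, Tnfaip3, Socs3, Cd69, Ccrl2, Egr1, Gm6377, Dusp1, Nr4a1, Junb, Rasgef1b, Zfp36, Rcan1, Rgs1, Ppp1r15a, Cyp1a2, Plek, Nfkbia, Cdc42ep4, Mmp13 and Pnrc1. When the array coded 14 was set aside, the other 5 treated arrays lay above all controls for 80 of the 85. The lowest 1 h array was that coded 14 for 79 of the 85 genes, that coded 33 for 3, that coded 20 for 2 and that coded 54 for 1.

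Each 1 h array was next set against the mean of the 2 controls of its own range. The median difference over the 85 genes was 0.46 on the log2 scale for the array coded 14 and 2.0 for that coded 20, which shares its controls. It was 2.32 and 2.38 for the arrays coded 33 and 36, and 2.55 and 2.34 for those coded 51 and 54. On the array coded 14, 76 of the 85 genes lay above the controls and 18 lay at least 2-fold above, and on each of the other 5 arrays all 85 lay above and 67 to 81 at least 2-fold above. The largest differences on the array coded 14 were those of Cxcl2 (3.81), Tnf (3.19), Cxcl1 (1.96), Cyp1a2 (1.57), Tnfaip3 (1.49) and Cdc42ep2 (1.36). Of these, Cyp1a2 did not pass the filter on dim probe sets, and the mean of the controls for Cxcl2 includes the low control coded 18. The 85 genes were chosen with these arrays in the fit, so the values describe the arrays and test nothing.

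**Figure D4:**
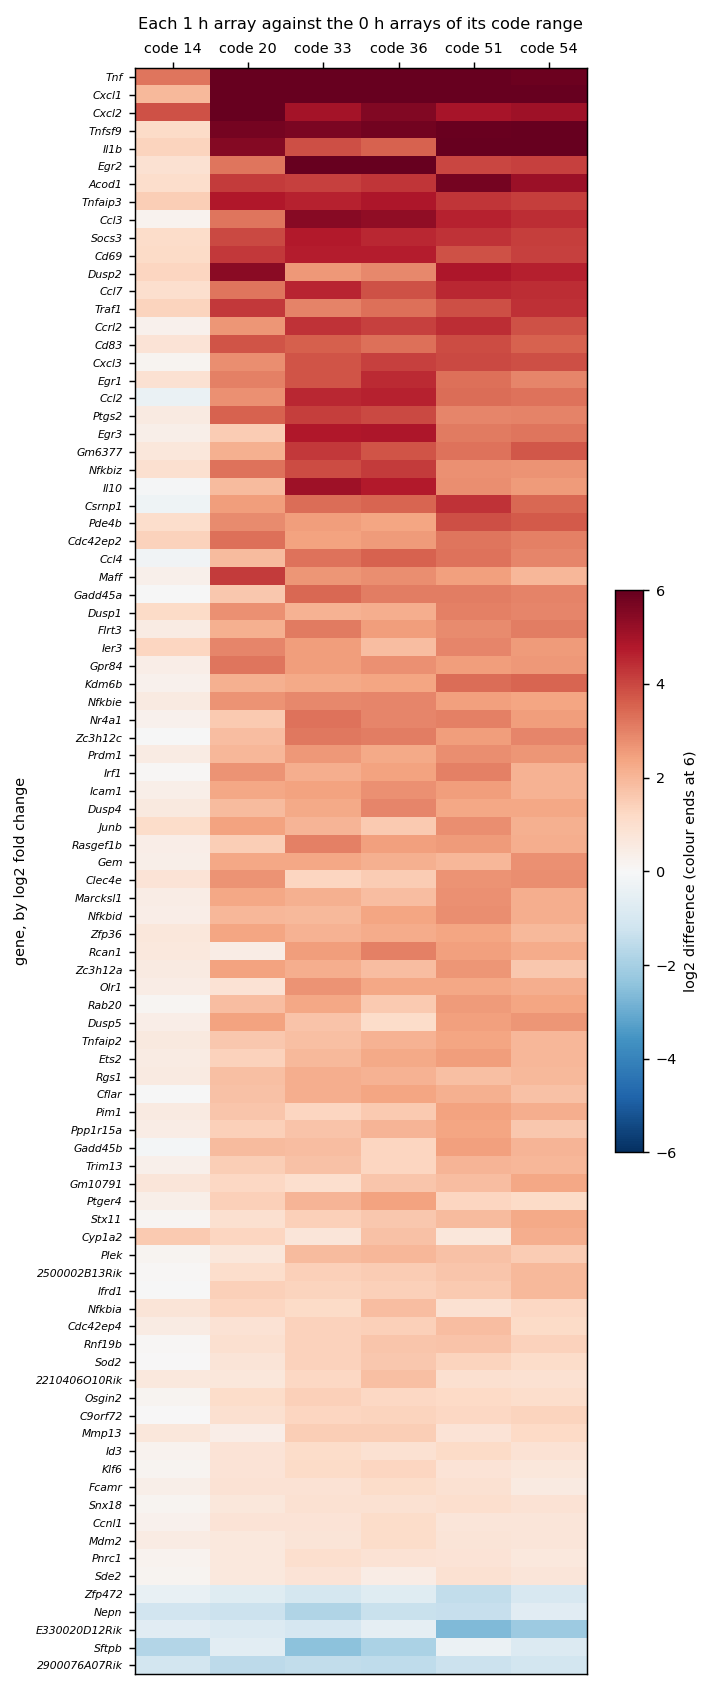
Log2 difference of each 1 h array (columns, by array code) from the mean of the 2 controls of its code range for the 85 genes that rose and the 5 that fell (rows, by log2 fold change); red is above and blue below the controls, and the colour ends at 6. The column of the array coded 14 is pale, with a median over the risen genes of 0.46, while the medians of the other 5 columns run from 2.0 to 2.55.

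A choice of genes that did not use the range 12 to 22 gave the same order of its arrays. In a fit to the other ranges 130 genes rose, with a median log2 fold change of 1.95. On the array coded 14 these genes had a median difference of 0.28 from the controls, 100 of the 130 lay above them and 17 at least 2-fold above. On the array coded 20 the median was 1.48, 126 lay above and 83 at least 2-fold above. Of 13 genes that fell in the other ranges, 5 were below the controls on the array coded 14 and 9 on that coded 20. Cxcl2, Tnf and Cxcl1 were also high on the array coded 14 in this choice, whereas Il1a and Mir155hg lay below the controls there. The corresponding choice for either other range gave no genes, since leaving out the range 32 to 37 or the range 44 to 54 left 0 calls in both directions.

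**Figure D5:**
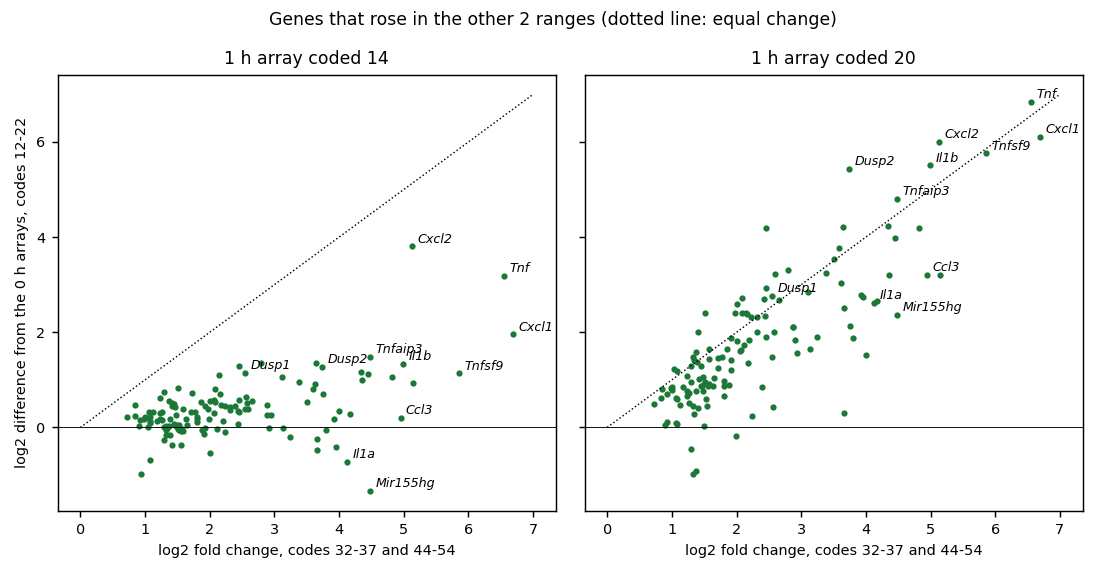
Genes that rose in the ranges 32 to 37 and 44 to 54 (130 points), with their log2 fold change there on the horizontal axis and their log2 difference from the 0 h arrays of the range 12 to 22 on the vertical axis, for the 1 h arrays coded 14 (left) and 20 (right); the dotted line marks equal change. On the left the points lie near 0, at a median of 0.28, with Cxcl2 and Tnf above the rest, and on the right they follow the line more closely, at a median of 1.48.

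Within the ranges, the median log2 fold change of the 85 risen genes was 1.19 in 12 to 22, 2.31 in 32 to 37 and 2.47 in 44 to 54, and all 85 were above 0 in each. All 5 fallen genes were below 0 in each. Both sets were called on these same arrays with the range as a block, so the choice favoured such agreement of sign, which tests nothing. A test of the difference between ranges called 0 of the 45037 probe sets, with a lowest adjusted p of 0.101. The unadjusted p was under 0.05 for 2288 of them, and a share of 0.05 is expected where no range differs. The 3 genes with the smallest p in that test were Egr3, Pygm and 1700094J05Rik, all of which failed the adjustment. Pygm, muscle glycogen phosphorylase, had log2 fold changes of 1.34, -1.44 and -0.63 in the 3 ranges, and 1700094J05Rik of -2.02, -0.30 and 1.99, and the highest signals of the 12 arrays were 45.1 and 132.

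Without the array coded 14, 155 genes rose (0.852%) and 25 fell (0.137%), and 369 and 144 probe sets did. All 85 risen and all 5 fallen genes kept their call, and all 85 had a larger log2 fold change. The 70 risers that were called only in that fit were led by Mir155hg, the host transcript of the microRNA miR-155, a regulator of inflammation in macrophages. Its signal on the array coded 14 was 2.44, against controls of 1.22 to 44.1, and it lay between 224 and 869 on the other 5 treated arrays (log2 fold change 3.98 ± 0.44, adjusted p = 1.11e-04; 0.0757 with all arrays). Il1a, which encodes IL-1 alpha, was at 7.77 on the array coded 14 and between 225 and 573 on the others, against controls up to 30.7 (3.88 ± 0.50, adjusted p = 5.70e-04; 0.105 with all arrays). The array measures the host transcript and not the mature microRNA, which RefSeq lists at chr16:84714143-84714165 (GRCm38.p6, plus strand) and whose seed is in capitals here.
mmu-miR-155-5p: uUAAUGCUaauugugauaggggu

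The orphan receptor gene Nr4a3 (2.82, adjusted p = 0.0102), the costimulatory ligand gene Icosl (2.04, adjusted p = 0.00637) and Phlda1 (1.84, adjusted p = 0.0224) were called without the array coded 14 too. So was E230013L22Rik (2.20, adjusted p = 0.00162). For Nr4a3 the array coded 20 was also low, at 21.6 against controls of 7.5 to 52.1, while the 4 arrays of the other ranges lay between 325 and 858. In the lists, the inflammasome sensor gene Nlrp3 (1.81, adjusted p = 0.00301) was then the 1 riser of 14, and the survival list went from 3 to 9 risers of 30, with Bcl2l11, Pmaip1, Phlda1, Pim3, Plk3 and Trib1 added. The list of enzymes and effectors went from 4 to 7 risers, that of decay factors from 3 to 6 and that on adhesion and costimulation from 3 to 5.

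The 20 falls called only without the array coded 14 included bright genes. Txnip, which restrains glucose uptake and binds thioredoxin, stood between 10820 and 18060 at 0 h and between 4615 and 7373 on the 5 arrays other than that coded 14, where it was 14810 (-1.27 ± 0.18, adjusted p = 0.00124; 0.105 with all arrays). Rgs2, a relative of Rgs1, stood between 10150 and 13880 at 0 h and between 2586 and 7630 on the same 5 arrays, with 14030 on the array coded 14 (-1.41 ± 0.31, adjusted p = 0.0406; 0.280 with all arrays). Hgf, hepatocyte growth factor, went from a mean of 474 at 0 h to signals of 109 to 237 on the 5 arrays (-1.39 ± 0.21, adjusted p = 0.00259). Lpar6, a lysophosphatidic acid receptor, had -1.09 ± 0.16 (adjusted p = 0.00165). The largest by size were Ccdc171 (-1.55) and 5430402O13Rik (-1.49), followed after Hgf by Snhg18 (-1.37), Grip1os1 (-1.31) and 9330198I05Rik (-1.22), all 5 with mean 0 h signals of 142 or less.

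Without the array coded 36, 47 genes rose and 1 fell, and 46 of the 85 rises and 1 of the 5 falls kept their call. Without the other single arrays, that coded 14 aside, 46 to 66 rises and 1 to 3 falls kept theirs. Leaving out the array coded 51, whose ratios for Gapdh and beta-actin were 0.783 and 1.56, gave the same number of probe sets that rose, 106. Without both the arrays coded 14 and 36, 119 genes rose and 13 fell. The part of the 3′ to 5′ ratio of the array coded 36 in the results was not tested.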

How the data were processed

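Total RNA of mouse immune cells was measured on Affymetrix 3′ expression arrays. The authors deposited 1 linear signal intensity per probe set and array, made with MAS5 and GCOS (Affymetrix software) per the submitters' processing notes. Versions and settings are not given in the sources used. Every value column was used. Of 45101 probe sets, 64 controls were left out. Of the rest, 34945 carry a single gene symbol in the platform annotation supplied for this work, 34741 of these matched RefSeq (GRCm38.p6), 932 carry several symbols and 9160 none; the last 2 kinds were tested but not named.

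Signals were not normalized again and were analysed as log2(signal + 16). R 4.3.3 and limma 3.58.1 (lmFit, eBayes) fitted the 3 times over all 18 arrays with the code range as a fixed block, leaving 13 residual degrees of freedom, and p-values were adjusted by Benjamini-Hochberg over 45037 probe sets with a threshold of 0.05. "Rose" and "fell" refer to this threshold. The number of arrays limits the precision. A probe set was counted as dim if fewer than 4 of the 18 arrays had it above their median; dim probe sets were kept in the main fit. The difference between ranges was tested as an F test of the interaction. The fit was tested on simulated data, with known changes placed on probe sets that passed the filter. It recovered 14% of 1.5-fold, 52% of 2-fold, 90% of 4-fold and 98% of 8-fold changes, with 11 false calls. Noise in the simulation was drawn separately for each probe set, and each change was equal on all 1 h arrays. In the data the array coded 14 responded weakly, so these rates may not hold for them. Changes of 2-fold or less can go without a call. Replicate numbers follow the accessions and pair no samples.

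The genes, the 21 pathway lists and the 9 cell type lists were chosen with earlier results of these data known. Named genes are Il10 and Tlr2; up to 25 rises and 15 falls of the largest size; per list the 5 largest changes past the threshold or, with none, the 2 brightest members; the 3 smallest p-values of the range test; and up to 8 rises and 8 falls called only without the array coded 14. Further risers are named from the full set of 85. Other genes of the title, and promoters on 1 chromosome, are not analysed here. Alternatives were the block, the arrays in the fit, array weights, the filter, the pseudocount, quantile normalization and eBayes with trend.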

Additional observations from a re-analysis of the deposited data

Results flagged for a closer look

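The signals of 53 named genes and both 3′ to 5′ ratios were searched for a single array that lay apart from the other 5 of its time. The measure was the gap to its nearest neighbour as a share of the range of the 6 values (Dixon's criterion). Gap and range were taken on log2(signal + 16) for the genes and on the log2 scale for the ratios, so linear signals give other shares. Chance gives such a gap in about 1 in 20 groups, a rate that does not apply to the count for the array coded 14, which was already known to respond weakly, or to genes that were chosen on these arrays and move together. At 1 h the array coded 14 was apart for 30 of the 53 genes, in each as the lowest. The largest shares were those of the activation marker Cd69 (0.915), the NF-kB inhibitor Tnfaip3 (0.879), the costimulatory ligand Tnfsf9 (0.877) and the transcription factor Maff (0.861). Among messengers they were 0.766 for Tnf, 0.793 for Cxcl1, 0.786 for Cxcl2, 0.649 for Ccl3, 0.750 for Ccl2, 0.627 for Il1b and 0.661 for Il10. Among transcription factors they were 0.627 for Egr1, 0.738 for Csrnp1 and 0.724 for Irf1.

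In the NF-kB list the share was 0.809 for Traf1, 0.763 for Nfkbiz, 0.645 for Nfkbie and 0.724 for Nfkbid. In the list of MAP kinase phosphatases and feedback genes it was 0.673 for Dusp2, 0.760 for Dusp1, 0.666 for Dusp5 and 0.738 for Gadd45a. The share of Socs3 was 0.740. For the decay factor Zfp36 it was 0.696, for the enzyme Acod1 0.636, for the kinase Pim1 0.726, for the surface proteins Cd83 and Icam1 0.654 and 0.684, and for the receptors Ccrl2 and Gpr84 0.626 and 0.659.

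At 0 h the array coded 18 was apart for Cxcl2 (0.766), at a signal of 268 against 1049 to 1579 on the other 5, and the array coded 35 for Nepn (0.736), at 68.2 against 35.7 to 42.8. At 1 h the array coded 36 was apart in the 3′ to 5′ ratios of Gapdh (0.795) and beta-actin (0.685).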

How the results depend on the processing

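With all choices as reported 190 probe sets rose and 40 fell. Leaving out single arrays gave 106 to 369 rises and 12 to 144 falls, and both highest counts are those without the array coded 14. The rises moved by more than 1.5 times, to 106, 106, 112, 112, 118 and 124, without the arrays coded 36, 51, 47, 54, 33 and 35. The falls lay between 12 and 21 without any array but those coded 12 (29) and 14. There were 122 rises and 23 falls with no block, 353 and 107 with only 0 h and 1 h arrays and without the array coded 14, and 277 and 123 without the arrays coded 14 and 36, the last chosen after seeing the data. Within the ranges 12 to 22, 32 to 37 and 44 to 54 there were 0, 93 and 34 rises and 0, 14 and 5 falls. Without them in turn there were 287, 0 and 0 rises and 54, 0 and 0 falls. The cause of these shifts was not tested, beyond the fewer arrays in some fits. Under the other settings, which kept all 0 h and 1 h arrays, the rises stayed within 1.5 times of 190 (159 to 276), whereas the falls were 26 with only 0 h and 1 h arrays, 94 with array weights, 72 with the filter on dim probe sets, 21 and 86 with pseudocounts of 1 and 64, and 61 with trend and robust eBayes. A random block gave 170 and 36, and quantile normalization 213 and 42. The test between ranges called 0 probe sets without the array coded 14, with the filter and with a pseudocount of 64.

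Of 52 named genes that rose or fell, 27 were called in every setting outside those with single ranges or with a range left out, and no gene changed sign in any of the 29 settings. The genes lost most often were Maff (21 settings), Nepn (20), Clec4e and E330020D12Rik (19 each), Il1b and Icam1 (18 each); their highest adjusted p outside the single ranges lay between 0.0959 and 0.239. Il10 was lost in 14. Tnf, Cxcl1, Cxcl2, Cxcl3, Acod1, Ccl3, Ccl7, Egr2, Egr3, Gadd45a and Gm6377 were lost in 3. Counting any probe set in place of the brightest gave 115 genes that rose and 25 that fell. No paired analysis was possible because the labels give no replicate numbers and tie no sample to an animal or culture.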

Other observations

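Some genes were called by a probe set other than their brightest: 30 genes rose and 20 fell in this way, while the brightest probe set of the same gene missed the threshold. Malt1, a protease of the NF-kB pathway, rose by 2.30 ± 0.32 (SE, limma, adjusted p = 0.00344) on a dimmer probe set, from a mean signal of 369 to 2177, and its brightest gave 0.96 (adjusted p = 0.0598). The sialyltransferase gene St3gal1 rose by 2.20 ± 0.36 (adjusted p = 0.00946) on one probe set and gave 0.45 (adjusted p = 0.781) on the brightest. The integrin gene Itga5 rose on 2 probe sets, by 2.02 and 1.33, with 0.64 (adjusted p = 0.352) on the brightest. Dusp16, a phosphatase of the MAP kinase JNK, rose by 2.02 (adjusted p = 0.0288), the NF-kB subunit gene Nfkb2 by 1.54 (adjusted p = 0.00656), the ubiquitin ligase gene Birc3 by 1.63 (adjusted p = 0.0133) and the decay factor gene Btg2 by 1.63 (adjusted p = 0.0238).

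Among the falls of this kind, Nrp1, a receptor for semaphorins, went from a mean signal of 1188 to 503 on one probe set (-1.30 ± 0.27, adjusted p = 0.0455), with -0.03 on the brightest. Agfg2 fell by 1.38 on the log2 scale and Herc4 by 1.33, with 0.06 and -0.02 on their brightest. Which transcripts these probe sets match was not analysed here. No called gene had probe sets that passed the threshold in opposite directions, and 20 of the 36 called genes with several probe sets had a second one called the same way.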
